A study of Mus musculus with 8 samples.

Results

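The genes described here are 34 that encode proteins of fatty acid uptake and beta oxidation, taken from a list of gene symbols, out of 45616 genes and unnamed transcripts on a single-colour Agilent mouse array. They comprise 21 enzymes and carriers grouped as mitochondrial, with Cpt1c placed there by family, and 5 peroxisomal enzymes. The others are 6 proteins that take up, bind or release fatty acids and 2 nuclear receptors of the PPAR family. RNA came from TEC71, an immortalized mouse cell line that originated from medullary thymic epithelium, grown as a monolayer in RPMI-1640 with serum. The control cells (3 arrays) had received Cas9n, a Cas9 that nicks a single DNA strand, together with a single guide RNA. The knock-in cells carried the T1211A mutation of Gtf2i, which encodes the transcription factor TFII-I, and came from clone 1 (3 arrays) and clone 3 (2 arrays). Each knock-in group is a single clone, so an effect of the mutation and a difference peculiar to a clone cannot be told apart within a group. The labels do not state whether the arrays of a group came from separate cultures, so p-values measure the spread between these arrays, which may be technical. In RNA of whole cultures, fewer cells of a kind and less RNA per cell cannot be told apart.

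Long-chain fatty acids enter cells with the help of surface and binding proteins, are joined to coenzyme A, and reach the mitochondrial matrix as carnitine esters. There, a cycle of dehydrogenation, hydration, a further dehydrogenation and thiolysis shortens the acyl chain, and auxiliary isomerases and reductases prepare unsaturated chains for the cycle. Very long and branched chains are shortened first in peroxisomes, and PPAR receptors that bind fatty acids activate transcription of many of these genes.

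Levels are log2 processed signals relative to the 75th percentile of each array, and differences are log2 differences between group means from limma, in which 1 unit is a doubling of signal. Between 55.3% and 59.3% of the probes on an array were well above background, and no spot was saturated. Of 13 markers of epithelium, 12 were well above background on every array, and Aire, the regulator that defines mature medullary cells, was above background on 3 arrays. The summed linear signal of these markers ran from 399 to 516 on control arrays, from 355 to 406 in clone 1 and from 375 to 420 in clone 3, as multiples of the 75th percentile. Within that list Epcam, Krt5, Cd80 and Trp63 fell in both clones (-2.31 and -2.86 for Cd80) and Cldn4 and Krt19 rose (1.52 and 1.17 for Cldn4). Of 8 fibroblast markers 2 were above background on every array and Pdgfrb, Dcn, Lum and Thy1 on none. The summed signal of the 8 was 0.962 to 1.21 on control arrays, 0.466 to 0.625 in clone 1 and 0.481 to 0.557 in clone 3. Of the 2, Pdgfra passed with -1.30 and -1.83 in clone 1 and clone 3, and Col1a2 did not pass (-0.13 and 0.14). Of 9 adipocyte markers, Lep, Lipe and Plin4 were above background on every array, while Adipoq, Plin1, Retn and Cfd were above background on no array. Lipe and Plin4 rose in both clones (0.71 and 0.86 for Lipe). Lep had -0.20 and -0.37 and Cidec 0.03 and -0.35 in clone 1 and clone 3, and neither gene passed. Of 8 macrophage markers 3 were above background on every array and Adgre1, Lyz2, Mrc1 and Cx3cr1 on none. Cd68 rose by 1.36 and 0.66, and the summed signal of that list was 7.49 to 10.8, 9.25 to 12.5 and 10.6 to 11.7 in the same order of groups. Of 7 endothelial markers Pecam1 alone was above background on every array. The part of these markers in the results was not tested. Gtf2i itself differed by -0.46 in clone 1 and by -0.59 in clone 3 (adjusted p 0.00754 and 0.00421), and its probe does not read the point mutation. Those calls ended when slide row entered the fit (adjusted p 0.0789 and 0.125).

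Promoter sequences are shown for 6 of the genes whose levels moved together in both clones, so that the letters upstream of the higher and the lower genes can be compared. They come from RefSeq for GRCm38.p6, run 5′ to 3′ on the strand of the gene (of Hadhb for the sequence shared with Hadha), and precede its start. Capitals mark AGGTCA, the core repeat of the element that PPAR receptors bind, or its reverse complement TGACCT. Cpt1a (chr19:3323051-3323300, plus strand) and Pnpla2 (chr7:141454938-141455187, plus strand) were higher in the clones. Acadvl (chr11:70015429-70015678, minus strand), Eci1 (chr17:24426433-24426682, plus strand) and the pair Hadha and Hadhb were lower. The last sequence (chr5:30155003-30155230, plus strand) is shared, because Hadha and Hadhb are transcribed away from each other from starts 273 bases apart. It holds the 228 bases that lie in the windows of both genes and leaves out the bases nearest each start.
Cpt1a: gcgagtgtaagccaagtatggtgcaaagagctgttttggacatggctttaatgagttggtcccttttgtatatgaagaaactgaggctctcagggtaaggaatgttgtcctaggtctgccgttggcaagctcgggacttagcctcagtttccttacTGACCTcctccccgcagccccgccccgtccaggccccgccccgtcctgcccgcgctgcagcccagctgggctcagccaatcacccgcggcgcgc
Pnpla2: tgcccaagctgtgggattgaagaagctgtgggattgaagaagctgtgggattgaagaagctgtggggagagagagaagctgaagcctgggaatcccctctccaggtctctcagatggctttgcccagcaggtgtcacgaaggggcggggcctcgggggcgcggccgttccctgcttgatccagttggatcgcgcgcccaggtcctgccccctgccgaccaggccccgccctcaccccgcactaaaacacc
Acadvl: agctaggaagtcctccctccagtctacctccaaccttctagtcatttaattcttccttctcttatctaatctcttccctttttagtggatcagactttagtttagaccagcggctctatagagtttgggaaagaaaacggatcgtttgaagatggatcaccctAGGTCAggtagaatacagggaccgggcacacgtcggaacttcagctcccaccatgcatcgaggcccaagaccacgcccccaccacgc
Eci1: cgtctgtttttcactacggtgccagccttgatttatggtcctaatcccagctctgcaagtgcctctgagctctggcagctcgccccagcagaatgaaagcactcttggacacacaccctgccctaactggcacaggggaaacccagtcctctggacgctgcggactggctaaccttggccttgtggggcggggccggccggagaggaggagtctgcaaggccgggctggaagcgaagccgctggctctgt
Hadha and Hadhb: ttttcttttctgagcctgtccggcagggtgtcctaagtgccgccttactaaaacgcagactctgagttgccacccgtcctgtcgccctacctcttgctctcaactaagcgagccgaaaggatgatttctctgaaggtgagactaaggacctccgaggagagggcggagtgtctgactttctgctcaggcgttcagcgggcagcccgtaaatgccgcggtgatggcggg

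A window of 250 bases before to 50 bases after the start was available for 26 of the 34 genes. AGGTCA on either strand was present in 6 of these 26 windows (23.1%), those of Acadm, Acadvl, Cd36, Cpt1a, Cpt1c and Echs1, and in 5340 of all 32851 promoter windows (16.3%). The full element, AGGTCA followed by any base and another AGGTCA, was present in 0 of the 26 windows and in 13 of all windows (0.0396%). The genes with AGGTCA included ones that rose (Cpt1a, Cpt1c), one that fell (Acadvl) and ones that passed in neither clone or in a single clone (Echs1, Acadm). A match of letters is a description and not a binding site.

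The first question was which genes of fatty acid oxidation differed between the clones and the control. In both clones the signal of Cpt1a, for entry into mitochondria, and of its paralogue Cpt1c was higher. So was that of Acaa2, for the final thiolysis, and of Pnpla2, for release of stored fatty acids. In both clones the isomerase Eci1, both subunits of the trifunctional protein (Hadha, Hadhb) and the dehydrogenase of very long chains (Acadvl) were lower. Of the 34 genes, 30 could be tested, since their probe cleared the background on all arrays of control, clone 1 or clone 3. Cd36, Lpl and Fabp4 were above background on no array, and Ehhadh on 2 control arrays only.

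In clone 1, 11 of the 30 tested genes rose, beside 14.7% of all 25353 features tested, and 4 fell, beside 16.5% of all. In clone 3, 8 rose, beside 13.3% of all, and 5 fell, beside 17% of all. In both clones 8 rose (Cpt1a, Cpt1c, Acads, Acaa2, Etfa, Acot2, Pnpla2 and Ppara), beside 11.3% of all, and 4 fell (Acadvl, Hadha, Hadhb and Eci1), beside 12.2% of all. The count of lower genes is thus near the background share, and no gene passed in opposite directions in the clones. The median difference of the tested genes was 0.23 in clone 1 and 0.20 in clone 3, beside -0.05 and -0.04 over all features. Ppara entered the test only through its signal on the knock-in arrays, and without it 7 genes rose in both. The comparisons of clone 1 and of clone 3 share the 3 control arrays, so the second is not an independent repeat of the first.

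**Figure D1:**
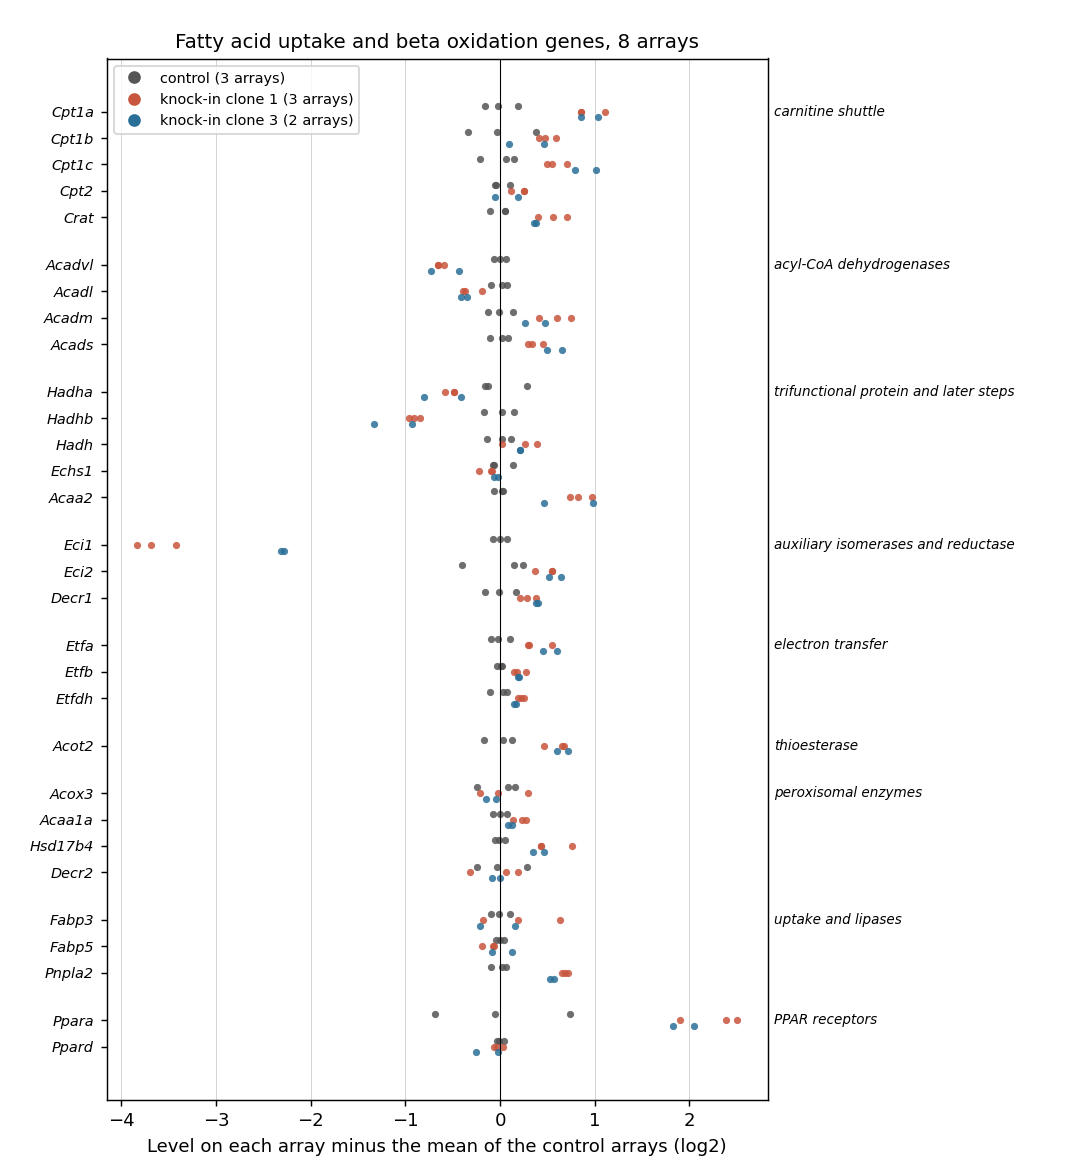
Level of each of the 30 tested genes on each array minus the mean of the 3 control arrays, in log2 units, by role; dots are arrays, grey for control, red for clone 1 and blue for clone 3. Eci1 lies farthest from the controls, and within most roles some genes lie above and others at or below the controls. The control dots of Ppara are signals at background.

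The placement of the array on the slide touches every comparison with the control. All 8 arrays were on 1 slide with 1 scan time. The 3 control arrays and the first clone 1 array lay in row 1, and the other 4 arrays in row 2. With the row as a further term in the fit, which then rests on the single clone 1 array in row 1, the genes that passed in both clones were Hadhb and Eci1, 2 of the 12. In clone 1, Cpt1a, Crat, Acaa2, Acot2, Pnpla2 and Ppara still passed as higher and Acadvl, Hadhb and Eci1 as lower, 9 of 15. In clone 3, Hadhb and Eci1 alone passed, of 13. All 12 genes kept their sign, among them Ppara, which was tested only through its signal on the knock-in arrays. The loss was general: 2862 features rose and 3090 fell in both clones without the term, against 962 and 1005 with it, and 1849 were shared. The part of the row in the results was not tested further.

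**Figure D2:**
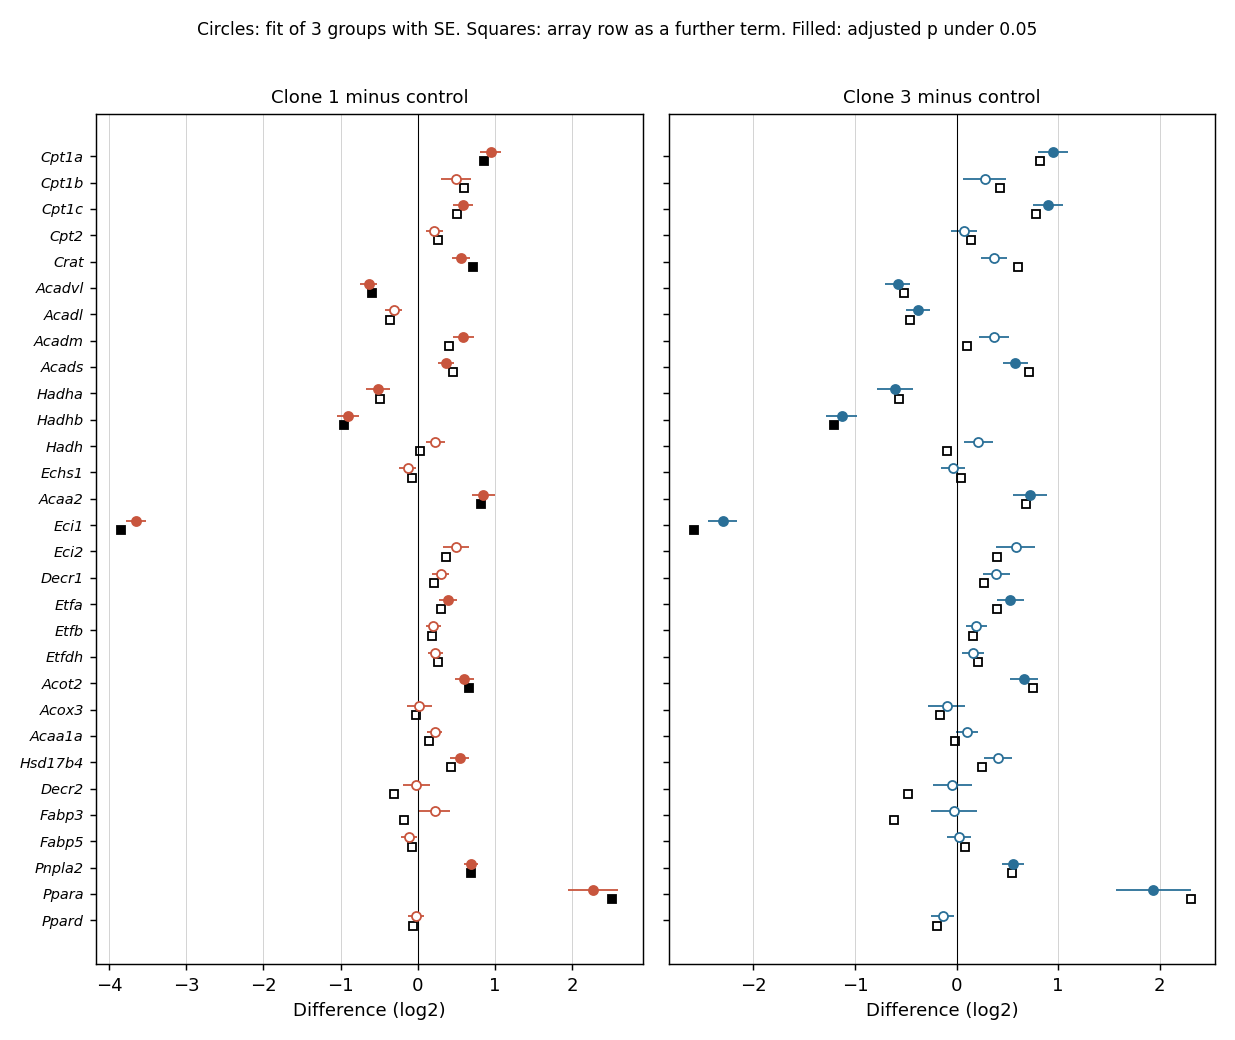
Log2 difference from control of the 30 tested genes in clone 1 and clone 3. Circles with SE bars come from the fit of 3 groups and squares from the fit with the array row as a further term; filled symbols have an adjusted p under 0.05, and the horizontal scales of the panels differ. In clone 3 the filled squares are Hadhb and Eci1.

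Eci1 had the largest fall of the 30 tested genes in each clone. It encodes the mitochondrial enoyl-CoA isomerase, which moves a double bond so that unsaturated fatty acids can pass through the cycle, and lies on chromosome 17. Its level (NM_010023) was 4.37, 4.44 and 4.52 on the control arrays, 0.60, 0.76 and 1.02 on the clone 1 arrays, and 2.12 and 2.16 on the clone 3 arrays. Thus the 3 groups do not overlap, clone 1 being lowest and clone 3 between clone 1 and control. Eci1 was read from 1 probe, so a change confined to the probed stretch cannot be told apart from one of the whole transcript. The difference was -3.65 (SE 0.126, adjusted p 3.28e-07) in clone 1, a 12.6-fold lower signal, and -2.30 (SE 0.141, adjusted p 1.08e-05) in clone 3, a 4.93-fold lower signal. With the row in the fit the differences were -3.84 and -2.59 (adjusted p 1.48e-05 and 5.66e-04).

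Eci1 was also the only one of the 30 genes that passed between the clones, beside 0.0749% (19) of all features. Clone 3 exceeded clone 1 by 1.35 (SE 0.141, adjusted p 0.0171), a 2.55-fold difference. This call was lost with the row in the fit (1.25, adjusted p 0.0562). It was also lost without control array 2 or 3, clone 1 array 1 or 2, or either clone 3 array (adjusted p 0.0508 to 0.103). For the other tested genes the adjusted p between the clones was 0.483 (Cpt1c) or higher.

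The other auxiliary enzymes did not pass in either clone. Eci2, the second enoyl-CoA isomerase of mitochondria, also found in peroxisomes, had differences of 0.49 and 0.58 (adjusted p 0.0619 and 0.0509), with control levels from 2.74 to 3.38 and knock-in levels from 3.51 to 3.78. A dimmer Eci2 probe gave 0.54 in clone 1 and 0.29 in clone 3. Decr1, the mitochondrial dienoyl-CoA reductase, had 0.29 and 0.39 (adjusted p 0.0917 and 0.0511). Eci2 passed in both clones under 5 of the 20 alternatives, among them leaving out the second control array. The probes of the isomerases therefore gave opposite signs, with the Eci1 difference past the threshold and the Eci2 difference short of it.

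**Figure D3:**
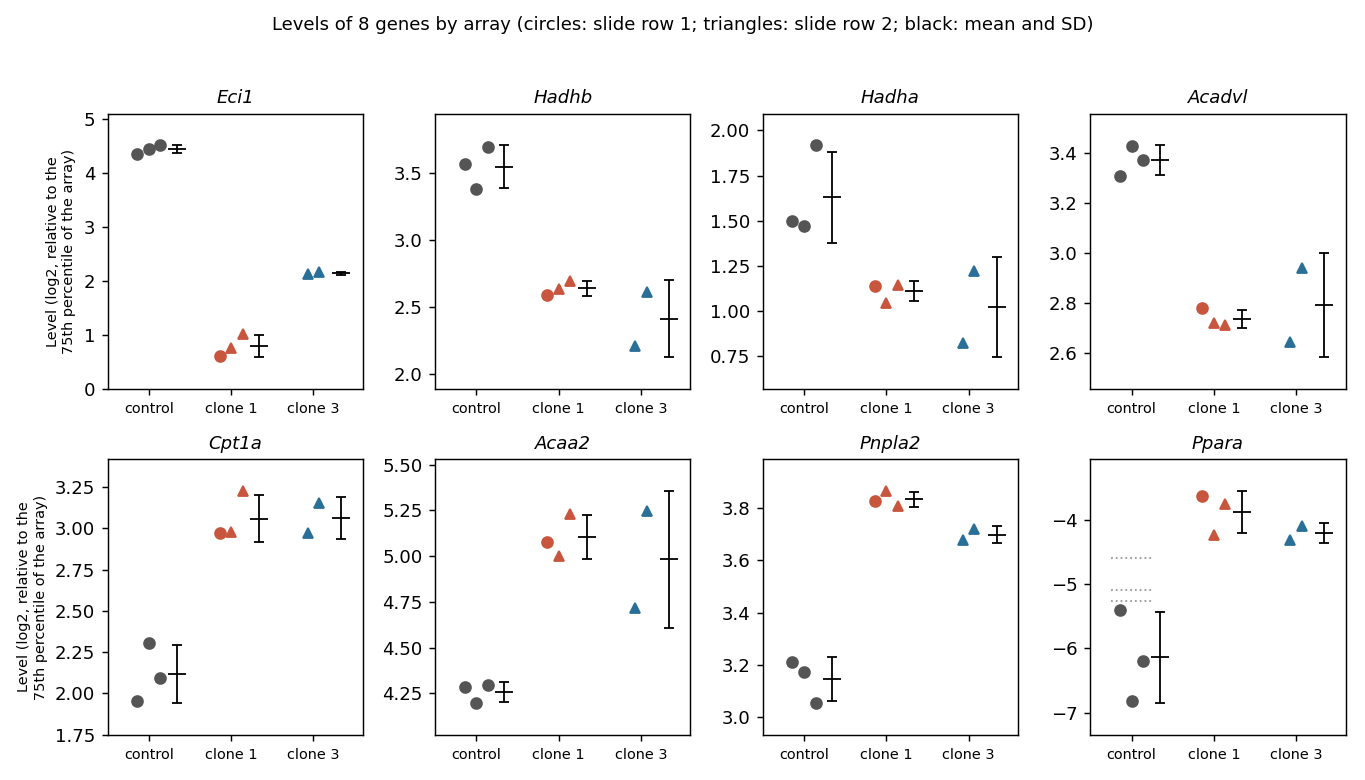
Levels of 8 genes on each array, as log2 signal less the 75th percentile of each array, for control, clone 1 and clone 3; circles are arrays of slide row 1, triangles of row 2, and black bars the mean and SD. Vertical scales differ between panels. The upper genes are lower and the lower genes higher on every knock-in array than on every control array. Dotted lines in the Ppara panel give the lowest signal called well above background on each control array.

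Hadha and Hadhb encode the alpha and beta subunits of the mitochondrial trifunctional protein, which carries out hydration, the second dehydrogenation and thiolysis on long chains. Hadhb stood at 3.57, 3.38 and 3.69 on the control arrays, 2.59, 2.63 and 2.70 in clone 1, and 2.21 and 2.62 in clone 3. Every knock-in array was below every control array. The differences were -0.91 (SE 0.138, adjusted p 0.00148) and -1.13 (SE 0.154, adjusted p 9.83e-04), which are 1.87-fold and 2.19-fold lower signals. Another Hadhb probe gave -0.68 in each clone. With the row in the fit, Hadhb still passed at -0.96 and -1.21 (adjusted p 0.0197 and 0.0395).

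Hadha was at 1.50, 1.47 and 1.92 on the control arrays, 1.14, 1.05 and 1.15 in clone 1, and 0.83 and 1.22 in clone 3, again without overlap. Its differences were smaller, at -0.52 (SE 0.157, adjusted p 0.036) and -0.61 (SE 0.175, adjusted p 0.0312). The call in both clones was lost with the row in the fit (adjusted p 0.211 and 0.332), with median scaling, without a filter on dim probes, and with only the 2 groups compared. It was also lost without control array 1 or 3, without any one of the clone 1 arrays, or without the first clone 3 array. Both subunits thus had lower levels on the knock-in arrays, and the larger difference was that of Hadhb.

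Among the enzymes that act beside and after the trifunctional protein, 1 of 3 moved. Acaa2, the mitochondrial thiolase for medium and shorter chains, had levels of 4.28, 4.20 and 4.29 on the control arrays, 5.08, 5.00 and 5.23 in clone 1, and 4.72 and 5.25 in clone 3. All knock-in arrays exceeded all control arrays. Acaa2 rose by 0.84 (SE 0.148, adjusted p 0.00301) and 0.72 (SE 0.165, adjusted p 0.0116), or 1.80-fold and 1.65-fold. The clone 3 call ended with the row in the fit (adjusted p 0.212) and without the second clone 3 array. Hadh, the dehydrogenase of shorter hydroxyacyl chains, had 0.23 and 0.21 (adjusted p 0.228 and 0.31). Echs1, the short-chain enoyl-CoA hydratase, had -0.13 and -0.04 (adjusted p 0.402 and 0.842).

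The 4 acyl-CoA dehydrogenases, which open each turn of the cycle and differ in the chain length they accept, did not move together. The longer-chain enzymes had negative and the shorter-chain enzymes positive differences in both clones. Acadvl, for very long chains, was at 3.31, 3.43 and 3.37 on the control arrays, 2.78, 2.72 and 2.71 in clone 1, and 2.64 and 2.94 in clone 3. It fell by 0.64 on the log2 scale in clone 1 and by 0.58 in clone 3 (SE 0.111 and 0.124, adjusted p 0.00298 and 0.0087), without overlap of knock-in and control arrays. The clone 3 call ended with the row in the fit (adjusted p 0.207) and without the first clone 3 array.

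Acadl, for long chains, was at 2.91, 3.07 and 3.02 on the control arrays, 2.63, 2.61 and 2.80 in clone 1, and 2.65 and 2.58 in clone 3. All its knock-in levels were below the controls, yet the difference passed in clone 3 alone (-0.38, adjusted p 0.0384) and missed the threshold in clone 1 (-0.32, adjusted p 0.0512). Acadm, for medium chains, had control levels from 1.83 to 2.10, clone 1 levels from 2.37 to 2.71, and clone 3 levels of 2.23 and 2.44. It rose in clone 1 (0.59, SE 0.133, adjusted p 0.0104), and the clone 3 difference of 0.37 did not pass (adjusted p 0.094). Between clone 3 and clone 1, neither gene passed (adjusted p 0.859 for Acadl and 0.617 for Acadm).

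Acads, for short chains, was at 2.29, 2.42 and 2.48 on the control arrays, 2.85, 2.74 and 2.70 in clone 1, and 2.89 and 3.05 in clone 3. Its lowest knock-in array was thus above its highest control array. It rose by 0.36 (SE 0.108, adjusted p 0.0329) and 0.58 (SE 0.12, adjusted p 0.00773). The call in both clones was lost with the row in the fit (adjusted p 0.0871 and 0.0808). It was lost as well without a filter on dim probes, and without the first or second control array, any one of the clone 1 arrays, or the second clone 3 array.

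The carnitine shuttle brings long acyl chains across the mitochondrial membranes. Of the 5 genes grouped with it, 2 rose in both clones, Cpt1a and its paralogue Cpt1c, which is placed here by family. Cpt1a, whose product on the outer membrane is the regulated and rate-limiting entry step in liver and many other tissues, was at 1.96, 2.30 and 2.09 on the control arrays, 2.97, 2.98 and 3.22 in clone 1, and 2.97 and 3.15 in clone 3. All knock-in arrays lay above all control arrays, and the clones overlapped each other. It rose by 0.94 in clone 1 (SE 0.132, adjusted p 9.75e-04) and by 0.95 in clone 3 (SE 0.148, adjusted p 0.00197), which is 1.92-fold and 1.93-fold. With the row in the fit Cpt1a passed in clone 1 (0.85, adjusted p 0.0238) and did not in clone 3 (0.82, adjusted p 0.105).

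Cpt1c, a paralogue best known from neurons, was at -0.03, 0.33 and 0.25 on the control arrays, 0.68, 0.73 and 0.89 in clone 1, and 0.97 and 1.19 in clone 3. It rose by 0.58 (SE 0.131, adjusted p 0.0103) and 0.90 (SE 0.147, adjusted p 0.00245), and a second probe gave 0.61 and 0.98. With the row in the fit its adjusted p was 0.125 and 0.117. Cpt1b, the paralogue of muscle, had control levels from -3.55 to -2.83 that overlapped the knock-in levels of -3.12 to -2.62, and its differences of 0.49 and 0.28 did not pass (adjusted p 0.0821 and 0.369).

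Cpt2, which turns the carnitine ester back into acyl-CoA inside mitochondria, had 0.21 and 0.07 (adjusted p 0.201 and 0.71). Crat, the acetyltransferase that exchanges short acyl groups with carnitine, was at 1.98, 2.14 and 2.13 on the control arrays, 2.80, 2.49 and 2.64 in clone 1, and 2.44 and 2.47 in clone 3. All knock-in levels of Crat lay above the controls. It rose in clone 1 (0.56, SE 0.114, adjusted p 0.00657), and 0.37 in clone 3 did not pass (adjusted p 0.0592). A dimmer Crat probe gave 0.20 in clone 1 and 0.35 in clone 3. Entry by Cpt1a and the later Cpt2 step thus differed in their calls, and the difference between these genes was not tested.

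Electrons from the acyl-CoA dehydrogenases pass through the flavoprotein formed by Etfa and Etfb to the membrane enzyme Etfdh. Etfa was at 4.11, 4.03 and 4.23 on the control arrays, 4.42, 4.43 and 4.67 in clone 1, and 4.72 and 4.58 in clone 3. It rose by 0.38 and 0.53 (SE 0.117 and 0.13, adjusted p 0.0369 and 0.0162), and its other probes gave 0.34 and 0.45 in clone 1 and 0.57 and 0.42 in clone 3. The Etfa call in both clones ended with the row in the fit (adjusted p 0.292 and 0.337), with median scaling, without a filter on dim probes, and without the first or second control array, any one of the clone 1 arrays, or the first clone 3 array. Etfb had 0.20 and 0.19 (adjusted p 0.149 and 0.203) and Etfdh 0.22 and 0.16 (adjusted p 0.125 and 0.321), so the partners of Etfa did not pass.

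Acot2, a mitochondrial thioesterase that releases free fatty acid from long-chain acyl-CoA, was at 2.32, 2.42 and 2.12 on the control arrays, 2.95, 2.75 and 2.97 in clone 1, and 2.89 and 3.01 in clone 3. It rose by 0.60 and 0.66 (SE 0.12 and 0.135, adjusted p 0.00591 and 0.00686). With the row in the fit it passed in clone 1 alone (adjusted p 0.0444, against 0.106 in clone 3). Acot2 has a close paralogue in Acot1, so a probe may read both. The Acot1 probe itself rose by 0.51 and 0.70 (adjusted p 0.00718 and 0.00308), and whether the probes read separate transcripts was not tested.

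No peroxisomal enzyme passed in both clones, although Hsd17b4 did under 8 of the 20 alternatives. Hsd17b4, the peroxisomal multifunctional enzyme for hydration and dehydrogenation, was at 3.18, 3.28 and 3.22 on the control arrays, 3.66, 3.66 and 3.99 in clone 1, and 3.69 and 3.58 in clone 3. Its knock-in levels all exceeded the controls. It rose in clone 1 (0.54, SE 0.12, adjusted p 0.00976), and 0.41 in clone 3 missed the threshold (adjusted p 0.0507). Normexp background correction, quantile normalization, the mean of all probes and leaving out the third clone 1 array were among the alternatives under which it passed. Acaa1a, the peroxisomal thiolase, had 0.22 and 0.10 (adjusted p 0.136 and 0.531), and its probe may also read the close paralogue Acaa1b. Decr2, the peroxisomal dienoyl-CoA reductase, had -0.02 and -0.04 (adjusted p 0.946 and 0.901).

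Acox3, an oxidase that begins the peroxisomal cycle on branched chains, had 0.02 and -0.10 (adjusted p 0.956 and 0.737) by its brightest probe. Its 3 probes disagreed. The probe of a predicted transcript gave -0.56 in clone 1 and -1.31 in clone 3, and the remaining probe gave 0.36 and 0.12, so the Acox3 value depends on the probe. Ehhadh, the bifunctional enzyme of peroxisomes, was at -4.68, -3.65 and -4.21 on the control arrays, of which 2 were well above background. On the knock-in arrays it lay between -7.09 and -6.59, and none was well above background. The lowest signal called well above background on the knock-in arrays was 1.69-fold under the control mean in clone 1 and 1.62-fold in clone 3, with no test. That control mean includes an array not well above background, so these folds are not strict lower limits.

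Of the 6 genes of uptake, binding and release, 3 could be tested and 1 rose. The surface transporter Cd36, the lipase Lpl that frees fatty acids from lipoproteins, and the adipocyte binding protein Fabp4 were not well above background on any of the 8 arrays. Fabp3, the binding protein of heart and muscle, lay between -4.57 and -3.72, with differences of 0.21 and -0.02 (adjusted p 0.484 and 0.95). Fabp5, the epidermal binding protein, lay between 5.66 and 5.99 on all arrays and had -0.11 and 0.02 (adjusted p 0.472 and 0.901).

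Pnpla2 encodes ATGL, the lipase that starts the breakdown of stored triglyceride. It was at 3.21, 3.17 and 3.05 on the control arrays, 3.83, 3.86 and 3.81 in clone 1, and 3.68 and 3.72 in clone 3. The lowest knock-in array was above the highest control array, and each group had a narrow range. Pnpla2 rose by 0.69 (SE 0.0965, adjusted p 9.78e-04) and 0.55 (SE 0.108, adjusted p 0.00575), or 1.61-fold and 1.47-fold. With the row in the fit it passed in clone 1 (adjusted p 0.0186) and did not in clone 3 (adjusted p 0.137).

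Of the receptors, Ppara rose from background and Ppard did not pass. Ppara, the receptor that drives fatty acid oxidation genes in liver, was at -5.40, -6.83 and -6.19 on the control arrays, none well above background. It was at -3.63, -4.24 and -3.75 in clone 1 and at -4.32 and -4.09 in clone 3, all well above background. Against the faintest signal called well above background on the control arrays, its signal was 2.15-fold higher in clone 1 and 1.71-fold in clone 3. The adjusted p of 0.00113 and 0.00492 comes from the fit on the measured values and not from these folds, and Ppara was tested only because it was high on the knock-in arrays. The call of Ppara in both clones ended with the row in the fit (adjusted p 0.072 in clone 3), with normexp background correction, and with a filter that asks for signal above background on all 8 arrays. Another Ppara probe was above background on 1 array only. Ppard, the receptor found in most tissues, lay between 2.52 and 2.81 on all arrays, with -0.02 and -0.14 (adjusted p 0.888 and 0.411).

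Other genes around this pathway were read from 5 lists with 77 tested genes. Of these, 19 rose and 11 fell in both clones, beside the 11.3% and 12.2% of all features, and 7 of the 30 (Vldlr, Txnip, Pdk4, Angptl4, Prkaa2, Acot13 and Acox2) still passed in both with the row in the fit. Vldlr and Prkaa2 were above background on no control array and were tested only through their signal on the knock-in arrays. The median difference of the 77 genes was 0.17 in clone 1 and 0.13 in clone 3.

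Among PPAR partners and targets, 6 of 14 rose and 2 fell in both clones, beside 11.3% and 12.2% of all features. The 6 include Vldlr, which was tested only through its signal on the knock-in arrays. Pdk4, the kinase that shuts pyruvate out of oxidation, rose by 1.96 and 1.97 (SE 0.135 and 0.151), from levels of -0.87 to -0.44 on the control arrays to 1.16 to 1.28 on the knock-in arrays. Angptl4, an inhibitor of lipoprotein lipase that PPAR receptors induce, instead fell by 1.24 on the log2 scale in clone 1 and by 1.54 in clone 3. Its control levels were 2.05 to 2.68 and its knock-in levels 0.92 to 1.27. Txnip, which limits glucose uptake, rose by 2.83 and 3.22. Vldlr, a lipoprotein receptor, rose from background. The rise was 312-fold and 263-fold against control values raised, where lower, to the faintest signal called well above background. Genes of this list that PPAR receptors are known to induce therefore passed in both directions.

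In the list of lipolysis and malonyl-CoA control, 7 of 13 genes rose and 1 fell in both clones, beside 11.3% and 12.2% of all features. The 7 include Prkaa2, which was tested only through its signal on the knock-in arrays. Abhd5, the coactivator of the Pnpla2 lipase, rose by 1.31 (SE 0.152, adjusted p 3.48e-04) and 0.98 (SE 0.17, adjusted p 0.00335). The lipid droplet coat proteins Plin3 and Plin4 rose by 1.49 and 2.15 in clone 1 and by 1.04 and 1.28 in clone 3. Their relative Plin2, counted among the PPAR targets, was lower in both clones (-0.48 and -0.44, adjusted p 0.0063 and 0.0158). Plin5 did not pass (-0.48 and -0.24), and Plin1 was above background on no array. Prkaa2, a catalytic subunit of the kinase AMPK, rose from background. The rise was 2.73-fold and 3.70-fold against control values raised to the faintest signal called well above background. The adipocyte marker list also holds Plin4 and Lipe. The summed signal of that list was 0.925 to 1.14 on control arrays, 1.16 to 1.34 in clone 1 and 0.992 to 1.05 in clone 3.

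Of 13 genes of activation and transport, 2 rose in both clones, near the 11.3% of all features, and 4 fell, beside 12.2% of all. The acyl-CoA synthetase Acsl5 fell by 0.72 on the log2 scale in clone 1 and by 0.76 in clone 3, and its paralogue Acsl1 rose by 0.58 and 0.67. Slc25a20, the carrier that moves acylcarnitine across the inner membrane between the Cpt1 and Cpt2 steps, rose by 0.50 and 0.54. Fabp2, the intestinal binding protein, fell by 0.75 in clone 1 and by 0.97 in clone 3, at levels of -4.24 to -2.92.

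Of other mitochondrial genes, 2 of 17 rose and 1 fell in both clones, near or below the shares of all features (11.3% and 12.2%). The thioesterase Acot13 rose by 1.11 and 0.89, and Acad8, a dehydrogenase of valine breakdown, by 0.39 and 0.47. Acat1, which makes and splits acetoacetyl-CoA, fell by 0.80 on the log2 scale in clone 1 and by 0.83 in clone 3. Of other peroxisomal genes, 2 of 20 rose and 3 fell in both clones, again near those shares. Acox2, an oxidase of branched chains and bile acid precursors, fell by 1.86 in clone 1 and by 1.83 in clone 3, from -0.84 to -0.69 on the control arrays to -2.65 to -2.55 on the knock-in arrays. Nudt19, a peroxisomal hydrolase of coenzyme A, fell by 0.50 in clone 1 and by 0.60 in clone 3. Acot8, a peroxisomal thioesterase, rose by 0.91 in each clone.

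**Figure D4:**
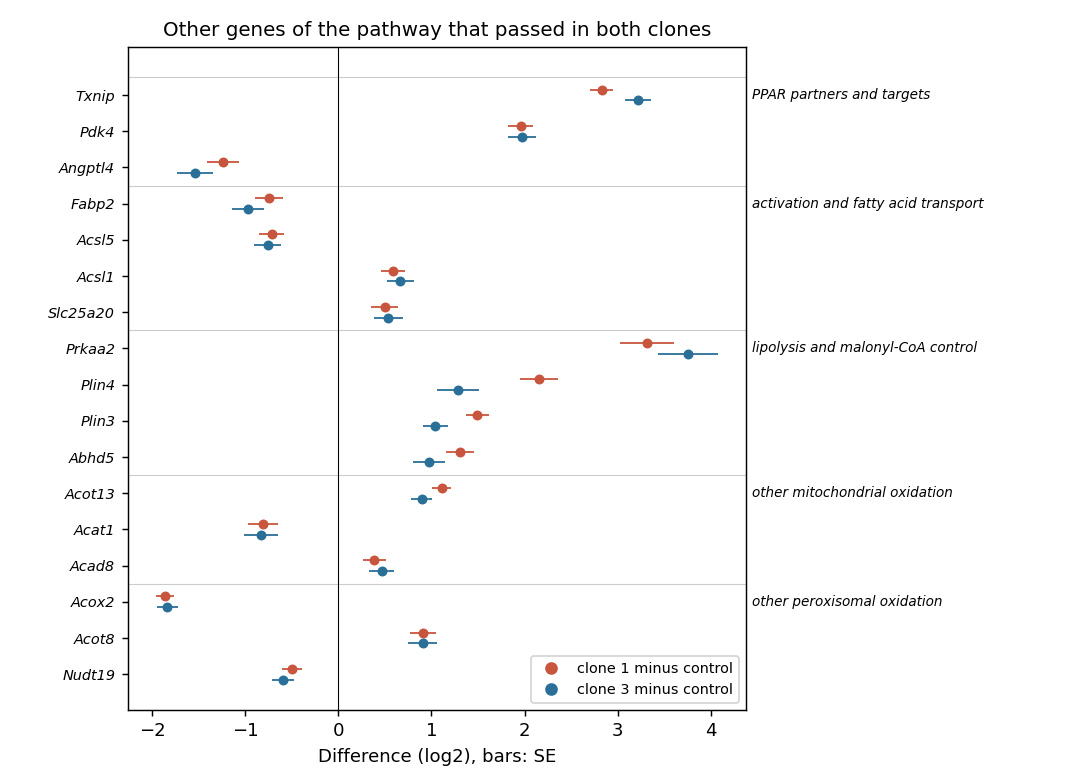
Log2 difference from control, with SE bars, of up to 4 genes from each list that passed in both clones; red is clone 1 and blue clone 3. Vldlr is not drawn, and the value of Prkaa2 is the fitted difference from a control group at background. Txnip and Pdk4 lie far to the right and Acox2 and Angptl4 to the left.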

How the data were processed

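Single-colour Agilent arrays (8, on 1 slide) were read as deposited. Per the submitters' processing notes the signals came from Agilent Feature Extraction 11.5.11; the file headers give 11.5.1.1 and the build mm9. The deposited processed signal is a background-corrected intensity on a linear scale. Outlier spots (114 to 242 per array) were left out. The log2 of the signal, averaged over spots of a probe, was reduced by the 75th percentile of each array. Probes were named through transcript accessions in RefSeq GRCm38.p6 (32994 of 56605 probes), and a gene was read from its brightest probe. Features whose probe was well above background throughout 1 or more groups were fitted with limma 3.58.1 in R 4.3.3 (1 mean per group, contrasts, eBayes, two-sided, Benjamini-Hochberg over 25353 features, threshold 0.05). The fit was checked on simulated data without a row effect or a background floor, so that check does not bear on either. Where a whole group was not above background, its values were raised, where lower, to the faintest signal that counted as well above background on their array. The fold is then an approximate lower limit, since a probe brighter than that faintest signal can still lack the call. For Ehhadh the control mean also includes an array not well above background.

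The 34 genes and the lists were chosen with earlier results of these data known. Named are all 34, Gtf2i, and from each other list up to 4 genes that passed in both clones with the largest smaller difference. Markers, chromosome neighbours and some relatives of these genes are named as well. Alternatives were normexp (offset 50), quantile and median scaling, other filters, the mean of all probes, a robust variance trend, array weights, the array row, the 2 groups compared alone, thresholds of 0.01 and 0.1, and each array left out. The number of arrays limits the precision. Protein sequences were not used here. A gene that the naming rule selects is not reported here.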

Additional observations from a re-analysis of the deposited data

Results flagged for a closer look

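Eci1 was singled out because its difference from control was not the same in the clones, by a test of the difference itself. Its level was 1.35 log2 higher in clone 3 (2.14 ± 0.02, SD, n = 2) than in clone 1 (0.79 ± 0.21, SD, n = 3), with an adjusted p of 0.0171 in limma. Both clone 3 arrays lay above all 3 clone 1 arrays, on the 1 probe that read Eci1. Within slide row 2, which holds both clone 3 arrays and 2 of the clone 1 arrays, the difference was 1.25, and with the row in the fit the call was lost (adjusted p 0.0562).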

How the results depend on the processing

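Of the 90 differences of the 30 tested genes, 0 reversed to a called opposite sign under any alternative run. Counts moved by over 1.5 times with the array row in the fit: 9 genes passed in clone 1 (15 without it), 2 in clone 3 (13), 2 in both clones (12) and 7 of the other pathway genes in both (30). On the arrays of row 1 alone, with a lone clone 1 array assumed to vary like the controls, 7 passed in clone 1. At a threshold of 0.01, 7 passed in both clones. The 1 call between the clones, Eci1, became 0 without a filter, with the row, with only the 2 groups compared and at 0.01. Gtf2i no longer passed with the row (-0.44 in clone 1, -0.56 in clone 3) or on row 1 alone (-0.44). Leaving out each array in turn gave 12 to 15 genes in clone 1, 9 to 14 in clone 3, 9 to 11 in both, 0 to 1 between the clones and 23 to 27 other pathway genes; without a clone 3 array the lone array is assumed to vary like the other groups. Over the 20 alternatives, the call in both clones held in 20 for Hadhb and Eci1, in 19 for Cpt1a, Pnpla2 and Acot2, in 18 for Cpt1c and Acadvl, in 17 for Acaa2 and Ppara, in 11 for Acads, in 10 for Etfa and in 9 for Hadha. Most alternatives kept the filter that Ppara cleared only through its knock-in arrays, so the count for Ppara is no measure of stability. Genes without that call gained it in 8 for Hsd17b4, in 6 for Acadl, in 5 for Eci2 and in 3 each for Acadm, Decr1 and Crat. Apart from the fits with fewer arrays, features or a stricter threshold, the cause was not tested. A slide or scan block could not be formed. No paired analysis was possible because the labels give no replicate numbers shared between groups.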

Other observations

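Genes next to Eci1 and Hadhb on the chromosome were read after the values of both were seen. Of the 4 tested neighbours on either side of Eci1, Abca17 fell by 0.81 on the log2 scale in clone 3 (adjusted p 0.029) and Pgp rose by 0.39 in clone 1 (adjusted p 0.0159). Ccnf, Abca3, Rnps1, Dnase1l2, E4f1 and Bricd5 passed in neither clone, with adjusted p from 0.0591 to 0.988. Beyond the adjacent pair Hadha and Hadhb, the thymidylate synthase gene Tyms had differences of -1.22 and -1.13, Garem2 of -1.51 and -1.50, and Selenoi of -0.75 and -0.98, all past the threshold in both clones, as were 12.2% of all features in the lower direction. Garem2 was dim, at -3.38 in control and -4.89 and -4.87 in the clones. The faintest signal called well above background on knock-in arrays was -5.45 to -4.56. 3110082J24Rik, Adgrf3 and Otof passed in neither clone, and Drc1 was not tested.

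The brightest spike-in control spot read 2797 on the first clone 1 array and between 17164 and 30390 on the other 7. That array is the only knock-in array in slide row 1.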
